A study of Notophthalmus viridescens with 3 samples.

Results

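The probes described here are the 5S ribosomal RNA controls on a miRNA array that was hybridised with RNA from newt hearts. They were chosen as the spots typed as biological sequence controls whose name contains 5S, and not by any measured value. The rule found 18 probes, 6 each for zebrafish (prefix dre), human (hsa) and the frog prefix xla, numbered b1 to b6 within a species, among 1426 probes in all. Each was printed as 4 spots, so 72 of the 5022 spots of an array belong to them. 

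Total RNA came from whole hearts of adult red-spotted newts (Notophthalmus viridescens), a salamander that regrows heart muscle. The uninjured group had no injury, and the other groups were taken 7 and 21 days post injury (dpi). Each group is 1 sample on 1 array, the labels give no further treatment, genotype or sex, and the number of animals in a sample is not stated. Each assay started from 0.5 µg of total RNA, which was dephosphorylated and given an adapter at its 3′ end for staining with Cy3. Of 12 probes for the striated-muscle miRNAs miR-1, miR-133, miR-208 and miR-499, 9 were detected on all 3 arrays.

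The 5S rRNA is the smallest RNA of the large ribosomal subunit. It is made by RNA polymerase III, bound by ribosomal protein L5 and by the transcription factor TFIIIA, and so conserved among vertebrates that a probe for 1 species often pairs with the 5S rRNA of another. Since every cell holds it in large amounts, it is used as a loading reference for small RNA. The newt's own 5S sequence was not used here, so the match of a probe to it is not known.

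The 18 target windows are 22 bases long, but the numbers b1 to b6 do not mark the same place in different species. When the human windows were joined at their shared ends, which are 2 to 5 bases long, they gave 119 bases, a sequence that serves only as a ruler. Laid on it without gaps over at least 15 bases, 15 of 18 windows fitted with at most 4 mismatches. By this ruler zebrafish b1 covers bases 21 to 42, as human b2 does, and zebrafish b4 covers bases 88 to 109, between human b5 at 81 to 102 and human b6 at 98 to 119. The frog windows begin 1 to 3 bases before the human windows of the same number, except b3, which could not be placed. Zebrafish b5 and b6 could not be placed either. The zebrafish windows share 0 or 1 end bases and gave 131 bases when joined, with b1 at base 21 of the ruler. In that order b5 would follow b4, which ends at base 109, and would have fewer than 15 bases on the ruler. Zebrafish b6 would lie wholly past the ruler's end, so the rule could place neither of them there. Whether the 5S rRNA holds them was not tested. A comparison by window is therefore given below beside the comparison by number.

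The first windows shown cover 1 stretch of the molecule in 3 species and read very differently on the arrays. Capitals mark the longest stretch that a window shares with a probe of another species, and all targets are written 5′ to 3′ as deposited.
dre-5S-b1: uaCGCCCGAUCUCGUCcgaucu
hsa-5S-b2: cgCGCCCGAUCUCGUCugaucu
xla-5S-b2: gaaagugccuGAUCUCGUCUGA
Counted from the 5′ end of the zebrafish target, the zebrafish and human windows differ by U1C, A2G and C17U. The human and frog windows overlap by 19 bases and differ by C1A, C3U and C7U, counted from the 5′ end of the human target.

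The next set holds the brightest probes and a dim neighbour. The zebrafish target begins 7 bases further 3′ than the human target, no base differs where they overlap, and its remaining bases differ from the human ruler at 1 place.
hsa-5S-b5: AUGGGAGACCGCCUGGGAAUac
xla-5S-b5: ggAUGGGAGACCGCCUGGGAAU
dre-5S-b4: ACCGCCUGGGAAUACcaggugc

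The last windows of the human and frog molecules are shown because their probes had the highest ratios to the uninjured heart at 7 dpi. They overlap by 21 bases and differ by G7A, C12U and U13C, counted from the 5′ end of the human target. The capitals of human b6 mark its match of 8 bases to frog b6, but those of frog b6 mark a match to zebrafish b4.
hsa-5S-b6: aauaccgggugcuGUAGGCUUu
xla-5S-b6: GAAUACCAGGUGucguaggcuu

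The remaining windows printed are those of probes that gave no signal, with zebrafish b2 beside the frog window that overlaps it.
dre-5S-b5: uguaagcuuuucgAAGUGCuuc
dre-5S-b6: auuuggcuAGCGAUuuaaauag
xla-5S-b3: GAUCUCagaagcgauacagggu
dre-5S-b2: cgGAAGCUAAGCAGGGUCGggc
Frog b3 and zebrafish b2 overlap by 17 bases and differ by G2A, U8G, A10U and G11A, counted from the 5′ end of the zebrafish target. The capitals do not mark this overlap. In frog b3 they mark a match to zebrafish b1, and in zebrafish b2 a match to human b3.

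On every array 14 of the 18 probes were detected and 4 were silent, and the silent probes were the same on each: zebrafish b5 and b6 and frog b2 and b3. Detection asked for a median spot brighter than 95% of the 587 empty spots on the same array. That level lay 5.8 above the empty-spot median on the uninjured and 7 dpi arrays and 31.7 above it at 21 dpi. By this rule 225, 220 and 180 of 1365 miRNA probes were detected on the uninjured, 7 dpi and 21 dpi arrays. The level was thus higher at 21 dpi, and these counts cannot be compared directly. The 16 silent spots read 59.6 to 68.8 on the uninjured array, 64.6 to 72.7 at 7 dpi and 50.1 to 63.6 at 21 dpi. The empty-spot medians were 68.0, 71.7 and 71.4, so each silent probe had its median below that of the empty spots. All 6 human probes were detected, against 4 of 6 for zebrafish and 4 of 6 for frog.

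Of the 4 silent probes, 3 had the shortest stretches in common with the other species. The longest stretch shared with a probe of another species was 6 bases for zebrafish b5, zebrafish b6 and frog b3 and 12 bases for frog b2, against a median of 15.5 and a range of 8 to 20 over the detected probes. For scale, the longest stretch that a miRNA target shared with any 5S window had a median of 5 bases and reached 10, so 6 bases need not mark conserved sequence. The 3 windows that could not be placed on the human ruler were all silent. Zebrafish b5 and b6 are among them. In the order of their windows b5 would have fewer than the 15 bases asked for on the ruler, and b6 would lie wholly past its end. At that place they could not have been placed whatever their sequence, so for them the failure to place says nothing on shared sequence. No human or frog window was placed past the ruler's end, so a longer shared stretch could not be looked for there. Frog b3 had 10 mismatches at its best place on the ruler, yet overlaps zebrafish b2 by 17 bases with 4 mismatches. Windows were laid without gaps only, so its failure to place does not show that it lacks shared sequence. Frog b2 was placed, with 3 mismatches, and was silent as well, while human b6, with 8 shared bases, was detected. GC content was 31.8% to 50% in the silent windows and 50% to 68.2% in the detected ones. Only zebrafish b5 and b6, at 40.9% and 31.8%, lay below every detected window. Silent frog b2 and b3 had 50%, as did zebrafish b3, human b6 and frog b6, which were detected. The part of shared sequence, of base composition and of a place past the ruler's end was not tested.

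Signals below are the median of the 4 spots minus the empty-spot median of the array, in intensity units. Frog b5 was the brightest 5S probe on all 3 arrays, at 49295 without injury, 49267 at 7 dpi and 54480 at 21 dpi. Human b5, which shares 20 bases with it, came second with 37373, 35676 and 42576. These windows lie in the 3′ part of the molecule, and their readings stayed within a narrow range on the 3 arrays. The zebrafish b4 probe, whose 15 overlapping bases are identical to human b5, read 1605, 1939 and 2211. Brightness between probes also depends on how well each probe binds, so these levels cannot be read as amounts of different parts of the RNA.

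Zebrafish b3, b2 and b1 held the next ranks on every array. The b3 probe read 29742, 21195 and 29826 on the uninjured, 7 dpi and 21 dpi arrays, and b2 read 21834, 17324 and 25000.
Zebrafish b1 read 11902, 9603 and 15444, while human b2, which covers the same bases with the 3 differences given above, read 555, 709 and 1106. Human b2 was the dimmest detected 5S probe on each array, and frog b2 over the same stretch was silent. These overlapping windows thus ranged from bright to silent. The bright zebrafish b1 and the silent frog b2 were not a pair compared, since they differ at more than 4 of their overlapping bases. Frog b2 also begins 3 bases before human b2. The other detected probes lay between 872 and 9815 on the uninjured array, between 1406 and 9355 at 7 dpi and between 1956 and 12348 at 21 dpi.

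The order of the 14 detected probes was nearly the same on the 3 arrays. Across these probes, which share libraries and in part sequence, Spearman's rho of the signals was 0.991 between the uninjured and 7 dpi arrays, 0.996 between the uninjured and 21 dpi arrays and 0.996 between the injured hearts. Neighbours in that order whose spots overlapped were not separated, as for human b1 and frog b1, at 8277 and 9815 in the uninjured heart and 9355 and 8875 at 7 dpi. These overlap by 19 bases and differ by U9C, counted from the 5′ end of the human target.
The 5S probes were among the brightest features. On each array 4 of them stood among the 10 brightest probes, and the median of the detected 5S probes was 8093, 7767 and 11833, beside 411, 148 and 553 for the 169 miRNA probes detected on all 3 arrays.

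At 7 dpi the 5S signal stood close to that of the uninjured heart, with no probe past 2-fold. The median log2 ratio over the 14 detected probes was -0.10, with a range from -0.49 to 0.69, and 9 probes were lower and 5 higher. A probe was called where its log2 ratio was at least 1 in size and its spots did not overlap between the arrays. By this rule 0 of 14 5S probes were called, against a background of 61.2% of the 286 probes of any kind detected on either array. With 1 sample per group no test between conditions was possible. Each assay started from 0.5 µg of total RNA, so the ratios compare equal masses of RNA from whole hearts. Neither the number of cells nor the RNA per cell can be read from them. Values were not scaled between arrays, and every sign given here is of unscaled ratios. The median at 7 dpi was -0.56 with arrays scaled to the spike-in probes, 1.33 with scaling to the miRNA median and 0.33 with quantile normalization. With the last 2 of these, 9 and 4 probes passed 2-fold, but the share of all probes called was computed for unscaled values only.

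Spots of 6 of the 14 probes did not overlap between the uninjured and 7 dpi arrays, 3 higher and 3 lower, where 80.8% of all probes tested had no overlap, 17.8% on the higher and 62.9% on the lower side. The share is not a like measure, here or in the later comparisons. The 5S probes have 4 spots per array and miRNA probes 3, and more spots overlap more readily. The share also takes in probes detected on only 1 array of a pair. Human b6 was higher by 0.43 ± 0.09 (standard error over the 4 spots of each array, technical spread only), with signals of 2830 and 3802. Human b2 was higher by 0.35 ± 0.13 and zebrafish b4 by 0.27 ± 0.09. On the lower side were human b4 at -0.46 ± 0.09, zebrafish b2 at -0.33 ± 0.06 and zebrafish b1 at -0.31 ± 0.07. Every one of these 6 differences was under 1.5-fold. The largest positive ratio, 0.69 ± 0.66 for frog b6, came with overlapping spots, since its dim spot at 7 dpi read 367, below the highest uninjured spot of 1082. It had 1 dim spot on the uninjured array as well, which does not cause the overlap.

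By species, the median log2 ratio at 7 dpi was -0.32 for the 4 detected zebrafish probes, 0.05 for the 6 human probes and -0.07 for the 4 detected frog probes. The ranges overlapped, at -0.49 to 0.27, -0.46 to 0.43 and -0.15 to 0.69. By number, the medians were -0.15 for b1 (3 probes), 0.0093 for b2 (2), -0.37 for b3 (2), -0.14 for b4 (3), -0.034 for b5 (2) and 0.56 for b6 (2). From the lowest to the highest median the positions spanned 0.93 and the species 0.38, which cannot be set against each other, since there are more positions and fewer probes in each.
Each species occupies a block of rows of its own on the array (11 to 16 for human, 18 to 23 for frog and 25 to 30 for zebrafish), so species and place on the array cannot be told apart. The empty spots in and beside these rows had medians of 69.5, 69.7 and 71.2 on the uninjured array and 71.6, 73.4 and 74.2 at 7 dpi.

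Placed on the human ruler, the windows fell into a sequence that the numbers hide. This grouping was chosen after the values were seen and carries no test. The 5 windows that start between bases 41 and 66 (zebrafish b2 and b3, human b3 and b4, frog b4) were all below 0 at 7 dpi, with a median of -0.33 and a range of -0.49 to -0.14, but 3 of them were above 0 with quantile normalization and all 5 with scaling to the miRNA median. The 3 windows that start at bases 88 to 98 (zebrafish b4, human b6, frog b6) were all above 0, with a median of 0.43 and a range of 0.27 to 0.69, but 2 of them were below 0 with spike-in scaling. The 2 bright windows between them, human b5 and frog b5, stood at -0.067 ± 0.06 and -0.00082 ± 0.07. The 4 windows at the 5′ end had ratios of both signs, from -0.31 for zebrafish b1 to 0.35 for human b2, although these probes cover the same bases.

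Probes that overlap in sequence did not always move alike. Of 9 pairs of detected probes from different species that overlap by at least 15 bases with at most 4 mismatches, 6 had the same sign at 7 dpi, and the log2 ratios of a pair differed by 0.029 to 0.66. The closest pair was zebrafish b3 at -0.49 ± 0.20 and human b4 at -0.46 ± 0.09, which share 17 bases without a mismatch. The farthest was zebrafish b1 and human b2, at -0.31 ± 0.07 and 0.35 ± 0.13, whose spots moved apart in opposite directions. Brighter probes tended to lower ratios. Pearson's r between the mean log2 signal over the 3 arrays and the ratio at 7 dpi was -0.61 (Spearman's rho -0.55) across the 14 probes, whose signals enter both measures.

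At 21 dpi all 14 detected probes were above the uninjured heart, with a median log2 ratio of 0.35 and a range of 0.0041 to 1.17, but the median was -1.11 with spike-in scaling and -0.063 with scaling to the miRNA median. With quantile normalization it was 0.050, with 7 probes above 0 and 3 below. Frog b6 was the only 5S probe called, so 1 of 14 passed 2-fold, against 23.0% of the 261 probes of any kind and 19.9% for higher calls. It read 872 in the uninjured heart and 1956 at 21 dpi, a log2 ratio of 1.17 ± 0.44, and its lowest spot at 21 dpi, 1719, lay above its highest in the uninjured heart, 1082. With spike-in scaling 8 probes passed 2-fold and frog b6 stood at -0.30. With scaling to the miRNA median or quantile normalization 0 did, and frog b6 stood at 0.75 and 0.76. The share of all probes called was not computed under these scalings. Human b2 was just short of the threshold, at 0.99 ± 0.18, with spots of 411 to 590 in the uninjured heart and 825 to 1261 at 21 dpi. Human b6 followed at 0.75 ± 0.16. In all, the spots of 7 probes lay apart, each higher at 21 dpi, where 66.3% of all probes tested had no overlap and 44.4% lay apart on the higher side.

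The last 3 windows again had the highest median, 0.75 (range 0.46 to 1.17), and the 5 middle windows stood at 0.044 (range 0.0041 to 0.58), below the 0.17 of the bright b5 pair. Without dim spots the middle windows had a median of 0.18 (range 0.12 to 0.66), so their order to that pair turns. Both comparisons share the uninjured array, so the likeness of their order is not independent. By number, b6 had the highest median at 0.96, with 0.38 for b1, 0.59 for b2, 0.29 for b3, 0.044 for b4 and 0.17 for b5, and b4 stood at 0.18 without the dim spots described below. By species the medians were 0.29 for zebrafish, 0.55 for human and 0.24 for frog, with ranges of 0.0041 to 0.46, 0.043 to 0.99 and 0.044 to 1.17 that overlap. The correlation of ratio with mean log2 signal across the 14 probes was -0.66 (Spearman's rho -0.60).

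The size of the 21 dpi difference depended on where a spot lay on the array. The 4 spots of each 5S probe sit in 1 row at columns 1, 11, 21 and 31. Over the 14 detected probes, the median log2 ratio of spots at the same place was 0.62 at column 1, 0.40 at column 11, 0.15 at column 21 and 0.10 at column 31. It was above 0 in 14, 14, 10 and 8 of the 14 probes. Within the uninjured array the spots at column 1 were below their probe's median by a median log2 value of -0.19 and those at column 31 above it by 0.08, while at 21 dpi column 1 stood at 0.11 and column 31 at -0.19. At 7 dpi against the uninjured heart the medians by column were 0.0090, -0.054, -0.14 and -0.048, a narrower range. The cause was not tested.

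Against 7 dpi, all 14 detected probes were higher at 21 dpi, with a median log2 ratio of 0.48 and a range of 0.15 to 0.83, but the median was -0.53 with spike-in scaling, -1.37 with scaling to the miRNA median and -0.25 with quantile normalization. None of them passed 2-fold, against 63.0% of the 262 probes of any kind tested, and the spots of 6 probes lay apart, all higher, where 82.1% of all probes had no overlap and 67.2% lay apart on the higher side. With scaling to the miRNA median 11 of 14 passed 2-fold, and with quantile normalization 2, where the share of all probes called was not computed. Zebrafish b1 was higher by 0.69 ± 0.06, from 9603 to 15444, and zebrafish b2 by 0.53 ± 0.06. Frog b5 and human b5 were higher by 0.15 ± 0.07 and 0.26 ± 0.08. The largest ratio, 0.83 ± 1.26 for human b3, had 1 dim spot on each array and overlapping spots.
In this comparison, which leaves the uninjured array out, the order of the windows was another. The middle windows had a median of 0.50 (0.61 without dim spots), the 4 windows at the 5′ end 0.56 (0.54), the last 3 windows 0.33 and the pair of bright b5 windows 0.20. The zebrafish median was 0.51, the human 0.42 and the frog 0.33, and the correlation with mean log2 signal was -0.10 (Spearman's rho -0.073). Zebrafish b1 and human b2, opposite in sign at 7 dpi, stood side by side here at 0.69 ± 0.06 and 0.64 ± 0.15. By column, the medians were 0.63, 0.53, 0.17 and 0.19.

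Single dim spots touched several members. Of the 168 spots of the detected probes on the 3 arrays, 9 were dimmer than 0.5 of their probe's median, 2 on the uninjured array, 3 at 7 dpi and 4 at 21 dpi, and they belonged to 6 probes. Human b3 had such a spot on every array, the dimmest at 249 beside 6607, 7121 and 6711 at 7 dpi. For frog b6 the spot at column 21 read 284 in the uninjured heart beside 889, 854 and 1082. Leaving these spots out moved some medians of spots, and human b4 at 21 dpi went from 0.043 to 0.18. Without the dim spots frog b6 at 21 dpi stood at 1.14, human b3 at 7 dpi at -0.30 and zebrafish b3 at 21 dpi at 0.12, and spots lay apart for 8, 8 and 9 probes in the 3 comparisons in place of 6, 7 and 6.

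Beside the other probe classes, and against the uninjured heart, the 5S probes stood further from the miRNA probes at 7 dpi than at 21 dpi. The 169 miRNA probes detected on all arrays had median log2 ratios of -1.43 at 7 dpi and 0.42 at 21 dpi against the uninjured heart, and the 5S median minus the miRNA median was 1.33 and -0.063. At 7 dpi, 147 of these 169 miRNA probes (87.0%) had a lower ratio than the lowest 5S probe, 14 lay within the 5S range and 8 above it. At 21 dpi 95 lay within the 5S range. The 16 spike-in control probes detected on all arrays had medians of 0.46 and 1.46, and the 5S median minus the spike-in median was -0.56 and -1.11. Between the injured hearts the miRNA median was 1.93 and the spike-in median 1.16, and the 5S median minus each was -1.46 and -0.68. Of the 169 miRNA probes, 153 then lay above the highest 5S probe, 4 within the 5S range and 12 below it. The 5S median at 7 dpi was smaller than the spread of spots within a probe, a median SD of 0.13 over the log2 ratios of spots at the same place. The median at 21 dpi was 0.35 beside a spread of 0.37, with all 14 detected probes higher. Between the injured hearts it was 0.48 beside 0.37. This spread is that of the spots of single probes and takes in the differences by column. It is no error of a median over 14 probes and cannot decide a sign. The sign of each of these medians turned with scaling, so none is settled.

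The miRNA probe nearest to the 5S medians, by distance over the log2 ratios at 7 and 21 dpi, was miR-1826, a name that matches a stretch of 5.8S rRNA. Its ratios were 0.09 and 0.23, at a distance of 0.23, and its signals of 35275, 37518 and 41353 made it the brightest miRNA probe on each array. The next nearest, miR-17 at 0.71 and miR-574-5p at 0.75, were dim probes, with 100.2 and 92.6 in the uninjured heart. Likeness was measured over 3 arrays only.
Of 12 miRNA names known to match other structural RNAs, 3 were detected on all arrays. Besides miR-1826 these were the tRNA-matching miR-720 and miR-1280, at -0.94 and -0.39 at 7 dpi and 1.23 and 1.26 at 21 dpi. No miRNA target on the array shared more than 10 bases in a row with a 5S window, and that stretch belonged to miR-373 and the silent zebrafish b5.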

How the data were processed

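The authors deposited 1 scanner table per array, with a median intensity per spot on a linear scale and no local background column, per the file headers. Which software read the images is not stated in the labels or headers. The series text speaks of paired hybridisation, while each table holds 1 channel of 1 sample, and values were treated as 1-colour. The deposited table of processed intensities has 1365 rows and holds 0 5S probes, so it gave no value here.

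The median of the empty spots was subtracted from the median of the 4 spots of each 5S probe (3 for miRNA probes), with no scaling between arrays. A ratio of a probe detected on 1 array only was taken against the detection level of the other. No saturation flag was used, and the brightest spots read 51819, 50530 and 56844. Precision is limited by having 3 arrays. Alternatives used normexp with an offset of 50 and quantile normalization in limma 3.58.1 under R 4.3.3. Other steps ran in Python 3.11.15. The calling rule was tried on simulated data with changes larger than 2-fold only, and without dim spots or differences by column. It therefore does not cover ratios near 2-fold or probes with dim spots. All 5S probes were named, and other probes by a rule written with the design. The members and lists were chosen with earlier results of these data known.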

Additional observations from a re-analysis of the deposited data

How the results depend on the processing

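No paired analysis was possible because each group is 1 sample. A local background column and processed values of the 5S probes were not at hand, so these 2 alternatives were not run. Scaling decides the level of the 5S medians. Scaled to the spike-in median they were -0.56 at 7 dpi, -1.11 at 21 dpi and -0.53 between the injured hearts, with 8 probes past 2-fold at 21 dpi, and frog b6 at 21 dpi turned to -0.30. Scaled to the miRNA median they were 1.33, -0.063 and -1.37, with 9, 0 and 11 probes past 2-fold. With quantile normalization they were 0.33 at 7 dpi, 0.050 at 21 dpi and -0.25 between the injured hearts, with 4, 0 and 2 probes past 2-fold. The spread between species was then 0.74 and 0.55 and that between positions 1.53 and 1.43, and the gap to the miRNA median 0.55 and -0.46 and to the spike-in median -0.36 and -0.30, for 7 dpi and between the injured hearts. The unscaled values, in that order, were 0.38 and 0.18, 0.93 and 0.47, 1.33 and -1.46, and -0.56 and -0.68. The gap to the miRNA median at 7 dpi was 0.97 without background subtraction and 1.00 with normexp, that between the injured hearts -0.98 and -1.02, and the gap to the spike-in median at 7 dpi -0.41 and -0.40. With the mean of spots 2 probes passed 2-fold at 21 dpi, and at 1.5-fold 3 did, with 1 between the injured hearts. The share of all probes called or lying apart was computed for the main setting only, so the counts under other settings have no background beside them. Of 42 ratios of single probes, 32, 30 and 21 moved by more than the spread of their spots under these 3 scalings. The first 2 scalings shift all probes of a comparison alike, so the ratios not counted are those with a wide spread of spots. Human b3 at 7 dpi went from -0.25 to 1.18 with scaling to the miRNA median and was not counted, at a spread of 2.56. The other results named here moved by less than the spread of spots under the remaining settings, except the median of b1 at 7 dpi, which was -0.32 with the mean of spots. The numbers of detected probes kept to 14 with percentile 99 and with all spots above the level. Added after seeing the data, ratios of spots at the same place and the omission of dim spots moved none of these results by more than the spread of spots. That spread keeps the dim spots and is wide where they lie, at 2.05 for zebrafish b3 at 21 dpi, so it can hardly show an effect of their omission. Without them the median of the middle windows at 21 dpi went from 0.044 to 0.18. Signals of the silent probes at or below the empty spots allow no ratio.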
